A study of Mus musculus with 18 samples.

Results

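Lung RNA of mice without interleukin-4 (IL-4) was compared with that of wild-type mice, both kept in room air. The members of this comparison are the 6 lung arrays labelled room air, 3 of IL-4 knockout (KO) mice and 3 of wild-type (WT) mice, out of 18 arrays in the series. All 6 animals were male C57BL/6 mice of 8 to 12 weeks that spent 4 days in a chamber open to room air, and total lung RNA was taken from each animal. The other 6 lung arrays came from mice of the same 2 genotypes, sex, strain and age that breathed 10% oxygen for the same time, 3 per genotype, and they are used below where they show which room-air differences recur. The remaining 6 arrays, of cultured lung endothelial cells, were not used. The labels do not say how the knockout allele was made, how often it was backcrossed, whether wild-type mice were littermates, or which animals shared a chip.

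IL-4 is a cytokine made mainly by T helper 2 cells, mast cells, basophils and other cells of type 2 immunity. It signals through receptor chains that activate the kinases of the JAK family and the transcription factor STAT6, drives B cells to switch antibody class and to raise the low-affinity IgE receptor, and turns macrophages toward a state marked by mannose receptor, arginase and chitinase-like proteins. Liver transcripts are a separate matter in a lung sample. Hepatocytes make most of the proteins of blood plasma, such as fibrinogen, apolipoproteins and carrier proteins, and few of these are made in quantity by healthy lung, so genes of this kind were listed and counted apart from all other differences.

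Values are normalized log2 signals of Illumina bead arrays, on which the brightness of a bead reads the abundance of a transcript; a difference of 1 on this scale is a 2-fold difference. Between 60.2% and 64.2% of probes were detected on each room-air array and the median raw signal lay between 126.3 and 148.3. Correlations across probes, which are not independent replicates, were 0.99 to 0.993 between WT arrays, 0.988 to 0.994 between KO arrays and 0.977 to 0.99 between a WT and a KO array, and 0 pairs of lung arrays held identical signals. Genes of lung epithelium were bright in both genotypes. The mean level of 11 alveolar type 2 cell markers was 13.37 to 13.45 in WT and 13.31 to 13.40 in KO, and that of 7 alveolar type 1 cell markers was 12.39 to 12.54 and 12.46 to 12.58. In samples of whole lung, fewer cells of a type and less RNA per cell cannot be told apart. Precision is limited by having 3 arrays a group.

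The deleted gene itself was read by 1 probe. Il4 had log2 signals of 8.26, 8.13 and 7.66 in the WT arrays and 5.71, 4.96 and 5.63 in the KO arrays. All 3 KO values lay below all 3 WT values, and the probe was detected above background on 3 of 3 WT and 2 of 3 KO arrays. The difference of -2.58 (SE 0.22) had an adjusted p = 1.6e-04. The labels do not place this probe against the deletion, and a probe outside the deletion would check no label.

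Of 12571 genes tested, 886 passed at an adjusted p under 0.05 (7.05%), 514 of them higher in KO (4.09%) and 372 lower (2.96%). A difference of at least 2-fold was reached by 218 of the higher and 76 of the lower genes. At an unadjusted p under 0.05 there were 2810 genes (22.4%). The 3 KO values lay entirely above the 3 WT values in 12.4% of all genes and entirely below in 12.1%. The median difference over all genes was -0.02. The count rests on single arrays, being 455 without KO room air 1, 444 without KO room air 2, 441 and 410 without WT room air 1 or 2, and 1238 without WT room air 3.

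Liver transcripts made up 100 of the 514 rises. Of 190 listed liver genes, 168 had a probe, 134 passed the filter on dim probes and were tested, and 100 of those rose in KO lung while 0 fell and 34 did not pass (74.6%, against 6.32% of the 12437 other genes). Of the 134, 20 were detected on 0 WT room-air arrays and some may have passed the filter through the KO arrays alone, so the share describes the measured members only. The median difference of the 134 was 2.04, and 1.92 with undetected genes set at their bound. Members of all 8 functional classes of the list rose, from plasma proteins to nuclear receptors.

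The mean log2 signal of these 134 genes, called the liver level here, was 7.32, 7.31 and 6.81 in the WT arrays and 10.16, 8.87 and 8.50 in the KO arrays. All 3 KO arrays stood above all 3 WT arrays. KO room air 1 stood apart from the other two KO arrays. As a share of the summed signal of all tested genes, liver genes made up 0.532%, 0.526% and 0.385% in WT and 3.42%, 1.42% and 1.09% in KO. Without KO room air 1, 86 of 125 tested liver genes passed with a median difference of 1.64, and without that array and WT room air 3, 84 passed. In a fit of only the 6 room-air arrays, 77 of 133 passed and the median was 2.03. With KO room air 3 as the only knockout array in room air, which is then assumed to vary like the other groups, 28 of 119 passed and the median was 1.47.

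**Figure D1:**
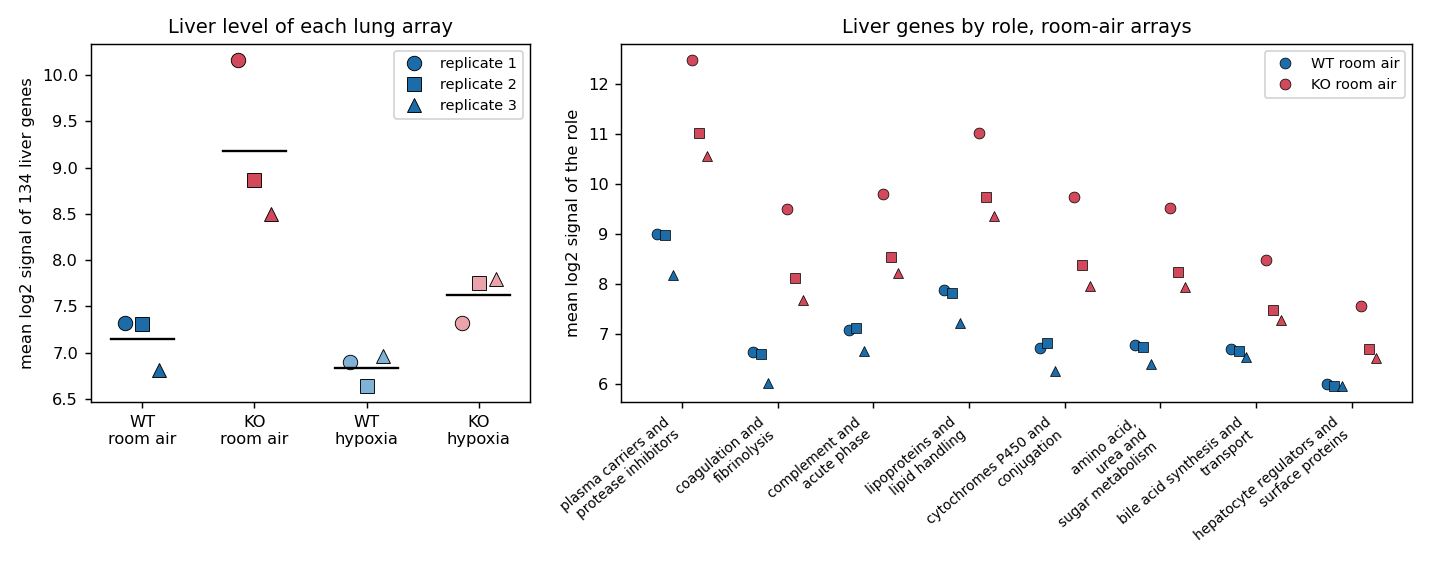
Left, the mean log2 signal of the 134 measured liver genes on each lung array, with the group mean as a bar; right, the mean log2 signal of each functional class of liver genes on the 6 room-air arrays, with circles, squares and triangles for replicates 1, 2 and 3. The 3 KO room-air arrays, at 10.16, 8.87 and 8.50, lie above all other lung arrays, and every class shows KO room air 1 on top.

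Among plasma carriers and protease inhibitors, 24 of 29 measured genes rose, with a median difference of 2.96. Ambp, the precursor of alpha-1-microglobulin and bikunin, had log2 signals of 8.78, 8.58 and 7.50 in WT and 13.59, 11.84 and 11.48 in KO, a 16.2-fold difference (log2 4.02, SE 0.47, adjusted p = 0.0012). Itih3, a heavy chain of the inter-alpha-trypsin inhibitors that join bikunin, differed by 3.87 (SE 0.38, adjusted p = 4.6e-04). Hpx, the haem carrier hemopexin, and Orm2, an orosomucoid, differed by 3.81 and 3.71. In all 4 genes the groups were apart and KO room air 1 was the highest array.

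Of 14 coagulation genes 9 rose (median 2.16), and of 18 complement and acute phase genes 14 rose (median 1.96). Fga, the alpha chain of fibrinogen, read 10.19, 10.20 and 8.85 in WT and 15.13, 13.42 and 12.70 in KO (difference 4.01, SE 0.53, adjusted p = 0.0018). Its partner Fgg, the gamma chain, differed by 3.32, Plg, which encodes plasminogen, by 3.62, and Serpinf2, the inhibitor of plasmin, by 3.02. In the complement and acute phase class Apcs, serum amyloid P, differed by 3.85, Saa2, an acute phase apolipoprotein, by 3.54 and Crp, C-reactive protein, by 3.00. C4bp, an inhibitor of complement C4b, was detected on 0 of 3 WT arrays and was at least 6.32-fold higher in KO.

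KO room air 1 was also the highest array for the metabolic genes named here. Of 12 lipoprotein genes 10 rose (median 2.72), of 22 cytochromes P450 and conjugating enzymes 17 rose (median 2.46), and of 22 genes of amino acid, urea and sugar metabolism 19 rose (median 1.88). Apoa1, which builds the particles of high-density lipoprotein, read 8.70, 8.55 and 7.53 in WT and 13.47, 11.74 and 11.30 in KO (difference 3.91, adjusted p = 0.0016). Cyp2d9 and Cyp2c29, drug- and steroid-metabolising P450 enzymes, differed by 3.61 and 3.41, and Cyp4a14, a fatty acid hydroxylase, by 3.39. Bhmt, which passes methyl groups from betaine to homocysteine, differed by 3.92, and Cps1, the entry enzyme of the urea cycle, by 2.71. Ftcd, an enzyme of histidine breakdown, was undetected on every WT array and was at least 5.91-fold higher in KO.

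The remaining classes had smaller medians. Bile acid genes rose in 3 of 7 cases (median 0.87), led by Baat, which conjugates bile acids, at 3.40. Genes of the Orm, Saa and Cyp2 families have close relatives that a probe may not tell apart. Hepatocyte regulators and surface proteins rose in 4 of 10 cases (median 0.93). Hnf4a, the nuclear receptor that defines hepatocytes, read 6.65, 6.68 and 6.17 in WT and 8.90, 7.67 and 7.45 in KO (difference 1.51, SE 0.30, adjusted p = 0.012), and Asgr1, a subunit of the hepatocyte asialoglycoprotein receptor, differed by 1.52. Igfbp1, a hepatic binding protein of insulin-like growth factors, and Nr1h4, the bile acid receptor FXR, were detected on 0 WT arrays and were at least 2.67-fold and 1.70-fold higher in KO. The Nr1h4 call was lost without WT room air 1 or 2. The 34 members that did not pass included genes that lung also makes, such as Hp, haptoglobin, which was bright on all 6 arrays (13.53 to 14.11 in WT, 13.90 to 14.60 in KO), and Trf, transferrin, with a difference of 0.20 (adjusted p = 0.75).

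Markers of the liver's non-hepatocyte cells rose less. Of 8 measured markers of liver macrophages and sinusoids, 2 rose and 0 fell (25%, against 7.05% of all genes), with a median of 0.14. The mean level was 5.68 to 5.77 in WT and 5.75 to 6.29 in KO. Clec4g, a lectin of sinusoidal endothelium, differed by 0.80 (adjusted p = 0.017), a call that was lost without KO room air 1, KO room air 2 or WT room air 2. Vsig4, a complement receptor of Kupffer cells, read 6.75 in KO room air 1 and at most 5.32 on the other room-air arrays, and it did not pass (adjusted p = 0.17).

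Promoter sequences of 3 risen liver genes are shown because they carry a textbook mark of hepatocyte genes, the site of the factor HNF1. The letters GTTAAT, any 1 base and ATT were searched on both strands of the 250 bases before each start site in RefSeq sequences of build GRCm38.p6. They occurred in 6 of 111 measured liver genes with a promoter entry (5.41%) and in 119 of all 27025 genes (0.44%); Afm, F13b and Hc, which also hold the letters, did not pass. A match is a description of the sequence, and no match in this window says nothing about the factor. Capitals mark the matched letters; C4bp lies on chr1:130661633-130661722 (minus strand), G6pc, glucose-6-phosphatase, on chr11:101367466-101367544 (plus strand) and Igfbp1 on chr11:7197687-7197776 (plus strand).
C4bp: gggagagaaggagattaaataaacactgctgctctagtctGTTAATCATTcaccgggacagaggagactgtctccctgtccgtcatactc
G6pc: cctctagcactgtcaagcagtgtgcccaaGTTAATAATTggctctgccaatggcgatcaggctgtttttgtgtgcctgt
Igfbp1: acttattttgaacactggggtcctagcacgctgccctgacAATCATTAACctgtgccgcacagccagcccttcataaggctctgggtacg

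These 3 genes rose with adjusted p-values of 0.012 (C4bp), 0.0056 (G6pc) and 0.014 (Igfbp1), by 1.63 for G6pc and by at least the bounds given above for C4bp and Igfbp1, which WT arrays did not detect. For G6pc the WT arrays read 6.05, 5.71 and 5.28 and the KO arrays 8.04, 7.03 and 6.84. KO room air 1 was again the highest and KO room air 3 the lowest knockout array.

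That order of arrays was common to nearly all liver genes. Of the 100 liver genes that rose, 98 were highest in KO room air 1, and 92 were also lowest in KO room air 3 among the knockout arrays. KO room air 1 exceeded the mean of the other 2 KO arrays by a median of 1.76, with a range from -0.10 to 2.73, and by at least 1 in 92 of the 100. Over all tested genes, 230 (1.83%) had a gap of at least 1. This gap was chosen as a marker after the values were seen, and it is used only to describe which other rises share the pattern of liver genes.

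**Figure D2:**
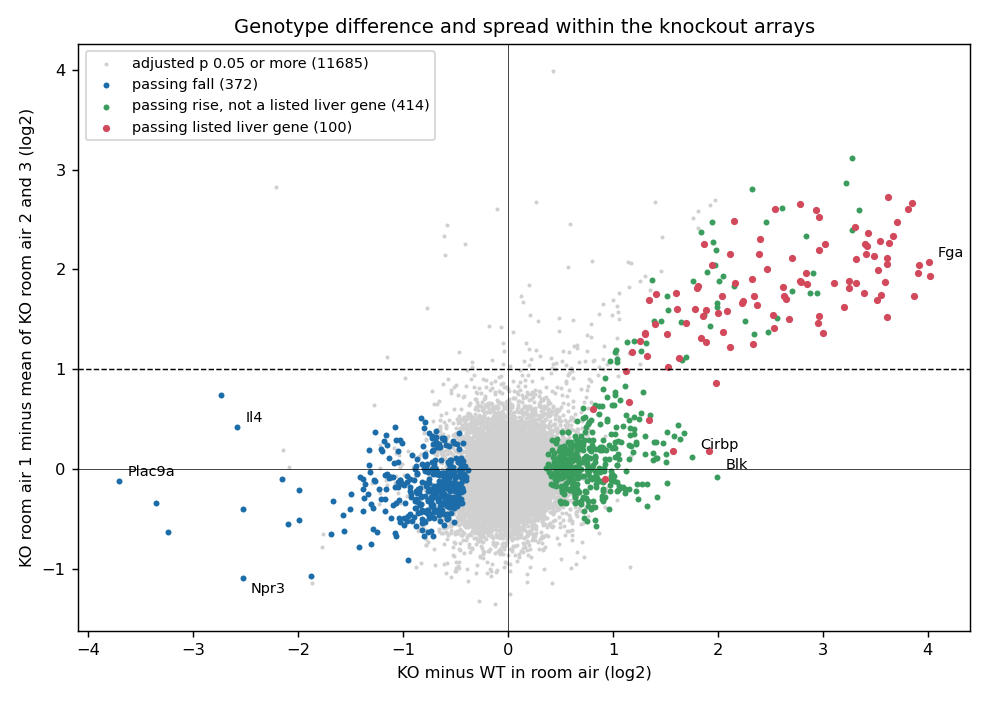
Each point is a gene; the horizontal axis is the KO minus WT difference in room air (log2), and the vertical axis is KO room air 1 minus the mean of KO room air 2 and 3 (log2), with a dashed line at 1. Listed liver genes that pass lie mostly above the line (92 of 100), while the passing falls and most other passing rises (366 of 414) lie below it.

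Outside the lists, 786 genes passed, 414 higher and 372 lower. Of the 414 rises, 48 had a gap of at least 1, 32 with a gene symbol and 16 without, and 13 of the 414 lay within 0.25 of that limit. Of the 6 with the largest differences, 3 were probes without a symbol and 3 were Fgl1, Apon and Serpina10, which hepatocytes are known to make and no list held. Fgl1, the secreted hepatokine fibrinogen-like 1, read 7.74, 7.70 and 6.36 in WT and 12.34, 10.29 and 9.18 in KO (difference 3.34, adjusted p = 0.0096). Apon, which encodes an apolipoprotein, was undetected in WT and at least 7.63-fold higher in KO, and Serpina10, the clotting inhibitor that binds protein Z, differed by 2.94. Further members of this group, picked after their values were seen, were Mup6, a major urinary protein made in male liver (2.71), Vtn, vitronectin (1.99), Agt, angiotensinogen (undetected on the WT arrays and at least 2.6-fold higher), Fbp1, an enzyme of gluconeogenesis (1.84), Ass1 of the urea cycle (1.27) and Ttpa, the vitamin E carrier of the liver (1.20).

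The other 366 rises and the 372 falls did not have that gap. Its absence does not set a rise apart from liver transcripts. Of the 100 listed liver genes that rose, 92 had the gap, and the lowest value was -0.10. The 366 rises may thus still hold liver transcripts. Among the falls 0 had the gap, and 2 had KO room air 1 lower than the other knockout arrays by at least 1. When the liver level of each array was added to the model, the genotype difference in room air passed for 2 genes (0.0159%), Plac9a and Tmem254a. The WT and KO liver levels did not overlap in room air, so that model can hardly separate the liver level from genotype, and the median standard error rose from 0.16 to 0.31. In it, 1491 genes (11.9%) had an unadjusted p under 0.05, including 198 of the 366 rises without the gap, 141 of the 372 falls, 4 of the 48 rises with the gap and 16 of the 100 liver genes. The liver level is the mean of the liver genes themselves, so their remaining differences centre near 0 by construction (median -0.07). The gap sets KO room air 1, the array with the highest liver level, against the other 2 KO arrays. Rises chosen by the gap thus follow the liver level within KO and tend to lose their difference in this model by construction. The counts of liver genes, of rises with or without the gap and of falls in this model are therefore not compared.

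Under hypoxia the knockout lungs also had higher liver levels, with smaller differences. Liver levels were 6.90, 6.64 and 6.97 in WT and 7.32, 7.75 and 7.80 in KO, and the 3 KO arrays lay above the 3 WT arrays. The median difference of the 134 liver genes was 0.62. Of these, 118 were higher in KO and 80 were higher without overlap, which 7.37% of all genes were. Yet 0 passed at an adjusted p under 0.05 in limma, and 63 had an unadjusted p under 0.05, against 7.51% of all genes. Fga, for example, read 9.09, 8.33 and 9.36 in WT and 10.77, 11.15 and 11.35 in KO (difference 2.16, adjusted p = 0.20). The difference between the room-air and hypoxia effects passed for 0 of the 134 liver genes. Of these 78 had an unadjusted p under 0.05, against 12.4% of all genes.

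Plac9a and Tmem254a passed with the liver level held constant and in both oxygen conditions. Plac9a, which encodes a small secreted protein of placenta and other tissues, read 11.52, 11.82 and 11.56 in WT room air and 7.84, 8.23 and 7.69 in KO room air. Every KO array was far below every WT array, and the difference was -3.71 (SE 0.18, adjusted p = 1.0e-06). Under hypoxia the difference was -3.19 (adjusted p = 6.4e-06). Tmem254a, which encodes a membrane protein, read 12.63, 12.58 and 12.38 in WT and 10.29, 9.72 and 9.36 in KO, a difference of -2.74 (SE 0.18, adjusted p = 2.1e-05), against -2.89 under hypoxia. In room air the Tmem254a arrays ran in the order of the liver level within each genotype. Under hypoxia the KO arrays, at 10.05, 10 and 9.96, ran in the reverse of that order with little spread. With the liver level held constant over all lung arrays, the room-air difference of Tmem254a was -3.65, against -3.66 for Plac9a. In the fit without the liver level, these 2 genes passed in room air with every lung array left out in turn. With the liver level held constant, 1 gene passed without KO room air 3, so at least 1 of the 2 lost its call there.

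Plac9a and Tmem254a are neighbours on chromosome 14 in the RefSeq order, with 0 genes between them, whereas Il4 lies on chromosome 11. RefSeq lists 3 Plac9 genes and 3 Tmem254 genes on chromosome 14. Compared position by position without alignment, the 250 bases before the start of Tmem254a match those of Tmem254c in 250 of 250 positions. They match those of Tmem254b in 70, and the bases before Plac9a match those of its copies Plac9b and Gm9780 in 73 each. Such matches do not show which copy a probe reads. The probes cannot be assigned to 1 copy from the sources used here. Other measured genes in the window around Plac9a did not pass, among them Anxa11 (0.01), Zmiz1 (-0.20) and Ppif (0.35), all chosen after their values were seen. Around Il4, 33 of the 100 nearest genes were tested; 0 were higher and 1 was lower (3.03%, against 7.05% of all genes). That gene was P4ha2, a prolyl hydroxylase of collagen, at 9.83, 9.85 and 9.62 in WT and 8.86, 8.94 and 8.88 in KO (difference -0.87, SE 0.12, adjusted p = 0.0019); under hypoxia its difference was -0.18 (adjusted p = 0.88).

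In all, 7 genes passed between the genotypes under hypoxia (0.0557%), all lower in KO, and 944 (7.51%) had an unadjusted p under 0.05. Of the 7, 5 also passed in room air, which is 71.4% of the hypoxia calls and 0.564% of the room-air calls. Beside Il4, Plac9a and Tmem254a these were Gxylt2, a xylosyltransferase that modifies Notch, and Ccl19, the chemokine that draws CCR7-bearing cells. Gxylt2 differed by -1.16 in room air (adjusted p = 0.020) and -2.45 under hypoxia (0.0028), and Ccl19 by -0.76 (0.032) and -1.26 (0.037). Counted by sign alone and without a test, 667 of the 886 room-air calls (75.3%), liver genes included, had the same direction under hypoxia.

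**Figure D3:**
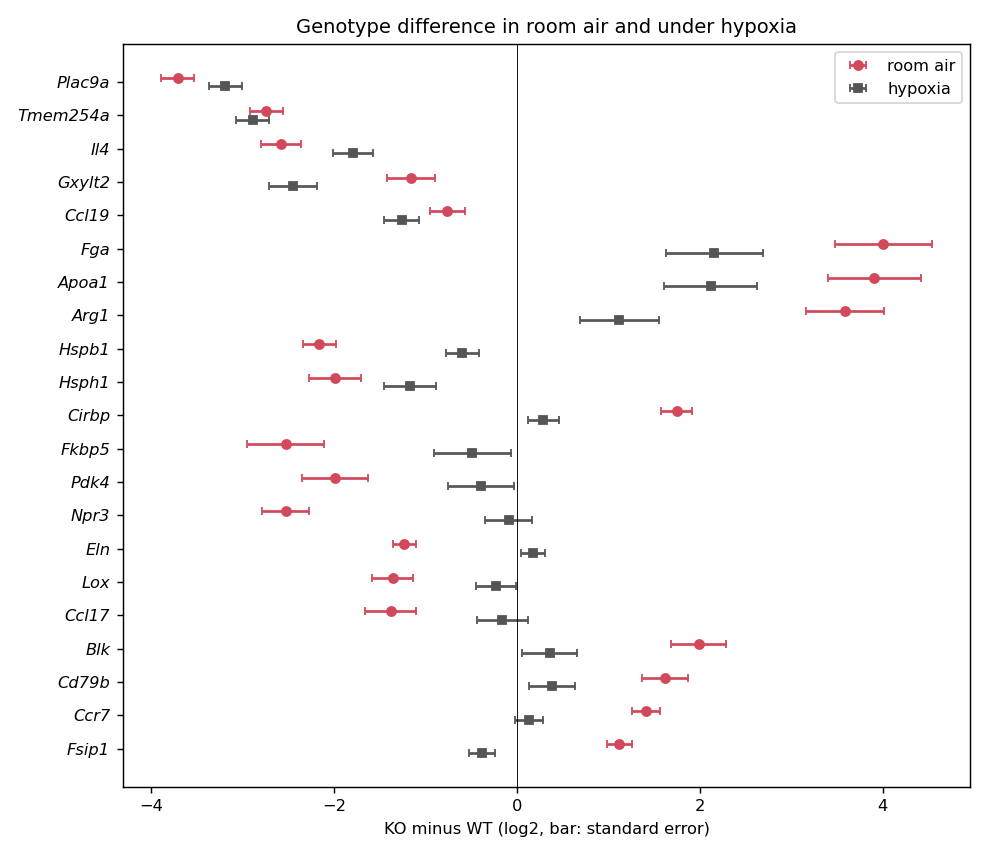
KO minus WT differences (log2) with standard errors for 21 genes, red circles in room air and grey squares under hypoxia, each from 3 arrays per genotype. Plac9a and Tmem254a show about the same difference in both conditions, Eln and Fsip1 differ between them, and the other genes are nearer to 0 under hypoxia except Gxylt2 and Ccl19.

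Of 11 measured B and plasma cell genes, 10 rose and 0 fell (90.9%, against 7.05% of all genes), with a median difference of 1.38. Their mean level was 7.57 to 8.13 in WT and 8.88 to 9.19 in KO. Blk, a kinase of the B cell receptor pathway, read 6.21, 6.18 and 7.26 in WT and 8.49, 8.63 and 8.51 in KO (difference 1.99, SE 0.30, adjusted p = 0.0028). Here WT room air 3 lay closest to the knockout arrays, and the KO arrays differed little from each other. Cd79b, a signalling chain of the B cell receptor, read 8.63, 8.86 and 9.51 in WT and 10.92, 10.68 and 10.27 in KO (difference 1.62, adjusted p = 0.0030).

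Fcmr, the receptor of IgM, differed by 1.64 and Cd79a, the other signalling chain, by 1.41. Ms4a1, which encodes CD20, differed by 0.80 (adjusted p = 0.013) and Mzb1, a chaperone of plasma and marginal zone B cells, by 1.38. Jchain, the joining chain of secreted IgM and IgA, differed by 1.58 (adjusted p = 0.016), but its call was lost without KO room air 1 or WT room air 2. Between 6 and 10 of the 11 genes passed when single lung arrays were left out, and 7 without KO room air 1. Other rises with known roles in B cells, picked after their values were seen, were Cxcr5, the receptor that guides B cells into follicles (1.68), Tnfrsf13c, the receptor of the survival factor BAFF (1.42), Bcl11a, a factor of B cell development (1.5), and Pou2f2, which encodes Oct-2 (1.17).

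Markers of other lymphoid cells rose in part. Calls made up 36.4% of T and NK cell, 25% of thymocyte and 31.2% of dendritic cell and MHC class II genes. Over all genes the share was 7.05%. Of 11 T and NK cell genes, 4 rose and 0 fell (median 0.61): Cd3d and Cd3e, chains of the T cell receptor complex, at 0.83 and 0.61, Thy1 at 0.63 and Ncr1, an NK cell receptor, at 0.96. Each of these 4 calls was lost on leaving out at least 2 of the 12 lung arrays, and 0 of the 11 genes passed without WT room air 2 or without KO room air 2. Cd8b1, a chain of CD8, rose from 8.22, 7.84 and 8.18 to 9.15, 9.49 and 9.25 (difference 1.22, adjusted p = 0.0022) and held on each leave-out. It was the 1 of 4 measured thymocyte genes that passed (median 0.17), and Rag1, of antigen receptor recombination, did not pass, with all 3 KO arrays below the WT arrays (5.15 to 5.24 against 5.56 to 5.76). Of 16 dendritic cell and MHC class II genes, 4 rose and 1 fell. The rises were Ccr7, H2-Ob, H2-DMb2 and H2-Oa. Ccr7, the homing receptor of lymph node entry, read 7.12, 6.64 and 7.16 in WT and 8.46, 8.52 and 8.17 in KO (adjusted p = 8.7e-04). H2-Ob, H2-DMb2 and H2-Oa encode subunits of non-classical class II molecules of B cells and dendritic cells. The H2-DMb2 call was lost without WT room air 1 or 2 or KO room air 1 or 2. Classical class II genes were close to WT, with H2-Ab1 at 0.01 and Cd74 at -0.10.

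**Figure D4:**
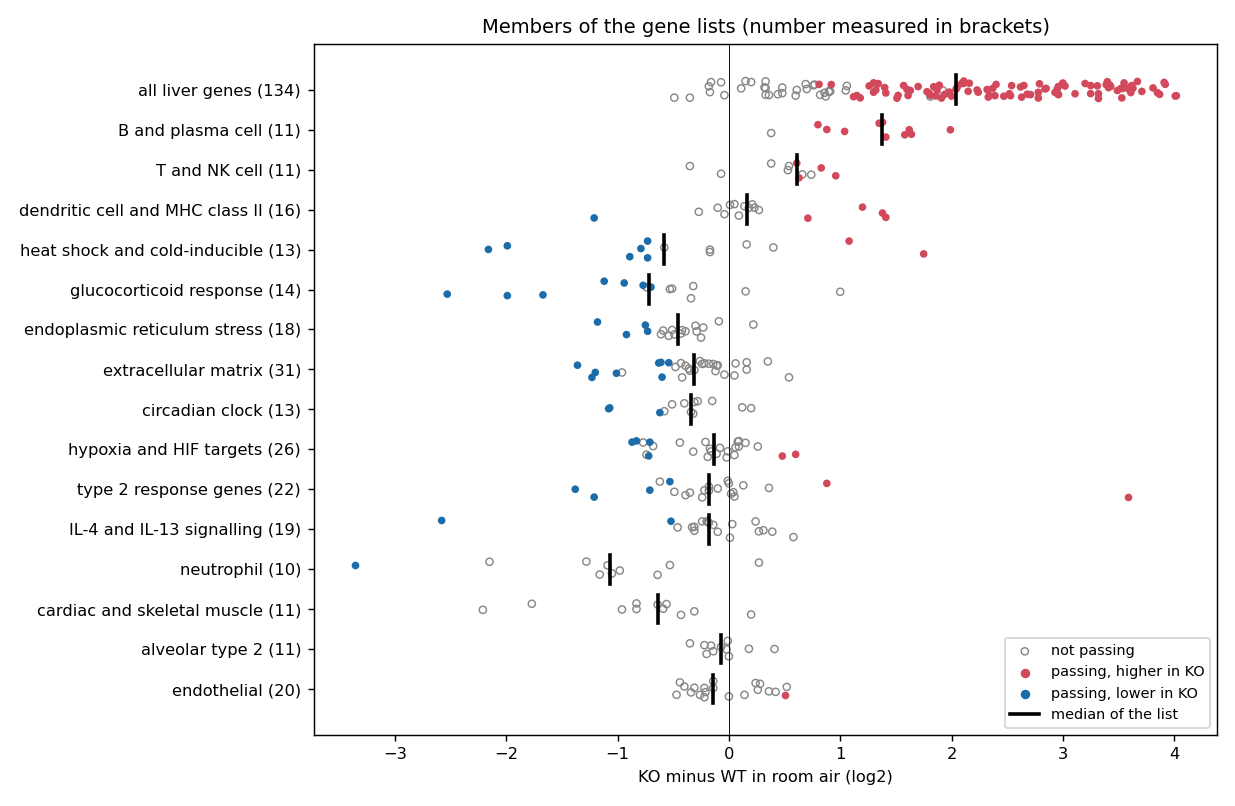
KO minus WT differences in room air (log2) of the measured members of 16 gene lists, 1 point per gene, filled where the adjusted p is under 0.05; black bars are list medians. Liver genes (median 2.04) and B cell genes (1.38) lie to the right, heat shock and glucocorticoid response genes lie mostly to the left (-0.58 and -0.72), and alveolar type 2 genes lie around 0.

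Some heat shock proteins, chaperones that refold damaged proteins, fell in KO. Of 13 measured genes of heat and cold responses, 6 fell, 2 rose and 5 did not pass, and the 2 that rose were the cold-inducible ones. Calls made up 61.5% of this list, against 7.05% of all genes. Hspb1, the small heat shock protein HSP27, read 13.15, 13.68 and 13.02 in WT and 11.06, 11.29 and 11.02 in KO (difference -2.16, SE 0.18, adjusted p = 1.6e-04). The lowest WT array was far above the highest KO array. Hsph1, the co-chaperone HSP105, read 11.88, 12.84 and 12.15 against 10.16, 10.17 and 10.58 (difference -1.99, adjusted p = 0.0022). Dnaja1, Hsp90aa1, Hspd1 and Hspe1 fell by 0.79, 0.73, 0.73 and 0.89.

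Cirbp, the cold-inducible RNA-binding protein, went the other way. It read 8.28, 8.15 and 8.38 in WT and 10.09, 10.07 and 9.89 in KO, a difference of 1.75 (SE 0.17, adjusted p = 4.1e-04), with little spread within each group. Rbm3, its relative, differed by 1.08 (adjusted p = 0.015), which was lost without WT room air 2, KO room air 1 or KO room air 2. Hspa1a and Dnajb1, further heat shock genes, did not pass, at 0.16 and 0.40. Without WT room air 2, 2 of the 13 genes fell and 1 rose; without KO room air 1, 3 fell and 1 rose. The calls of Hspb1, Hsph1 and Cirbp held with each lung array left out.

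Hspd1 and Hspe1, which encode the paired mitochondrial chaperones HSP60 and HSP10, share 1 promoter read in opposite directions, and it is shown because both genes fell together. The heat shock element was searched as GAA, TTC and GAA, with any 2 bases between each, on both strands of the same 250-base windows. It occurred in 2 of 10 heat and cold response genes with a promoter entry and in 139 of 27025 genes (0.514%), and the 2 were Hspd1 and Hspe1 with the same stretch. In the Hspe1 direction it lies on chr1:55088019-55088116 (plus strand, GRCm38.p6), where 2 overlapping matches, in capitals, end 71 bases before the start site.
Hspe1: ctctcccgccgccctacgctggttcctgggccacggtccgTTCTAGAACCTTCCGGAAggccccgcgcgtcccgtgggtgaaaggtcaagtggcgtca

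On the arrays Hspd1 read 12.82, 13.38 and 12.70 in WT and 12.24, 12.14 and 12.33 in KO, and Hspe1 read 11.71, 12.42 and 11.61 against 11.03, 11.16 and 10.89. Neither pair of groups overlapped. WT room air 2 was the highest array for both, as it was for Hspb1 and Hsph1.

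Part of the listed targets of the glucocorticoid receptor, which carries the signal of the stress hormone corticosterone, fell as well. Of 14 measured genes 7 fell, 0 rose and 7 did not pass (50% called, against 7.05% of all genes), with a median of -0.72. Fkbp5, a co-chaperone of the receptor that the hormone induces, read 11.19, 9.65 and 8.95 in WT and 7.14, 7.35 and 7.73 in KO (difference -2.53, SE 0.42, adjusted p = 0.0047). The groups were apart, but the WT arrays were widely spread and WT room air 3 was the lowest of them. Pdk4, a kinase that curbs pyruvate oxidation, differed by -1.99 and Cdkn1a, the cell cycle inhibitor p21, by -1.67. Tsc22d3, the glucocorticoid-induced leucine zipper GILZ, read 14.89, 14.48 and 14.26 in WT and 13.45, 13.69 and 13.66 in KO (difference -0.94, adjusted p = 0.0047), and Klf9 and Errfi1 fell by 0.77 and 0.70. The metallothioneins Mt1 (0.15) and Mt2 (-0.34) did not pass, nor did Lcn2, lipocalin 2, which lay on the other side at 1.00 (adjusted p = 0.16) with KO room air 1 the highest array. Between 6 and 8 genes of the list fell when single arrays were left out.

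Some of the largest other falls had the same spread in WT. Fam107a read 11.17, 10.01 and 9.20 in WT and 6.47, 6.89 and 7.32 in KO, a difference of -3.24 (SE 0.39, adjusted p = 0.0013). Il1r2, the decoy receptor of interleukin-1, read 11.25, 9.48 and 6.69 against 5.55, 6.19 and 5.60 (difference -3.36, adjusted p = 0.024). Its call was lost without any of the 3 KO arrays or without WT room air 1 or 2. Il1r2 is also a member of the neutrophil list described below. WT room air 3 was the lowest WT array in 242 of the 372 falls and the highest in 232 of the 366 rises without the gap. Its median distance from the mean of the other 2 WT arrays was -0.18 in the falls, 0.19 in those rises and 0.05 over all genes.

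Clock genes were listed because their expression follows the time of day. Of 13 measured, 3 fell and 0 rose: Ciart and Per2, repressors of the clock, by 1.08 and 1.07, and Cry2 by 0.62. These 3 calls were 23.1% of the list, against 7.05% of all genes. The Per2 call was lost without KO room air 1 or KO room air 2. Arntl and Dbp, which peak at opposite times of day, did not pass, at 0.12 and 0.20, where 0.20 was the highest difference of the list. The median of the 13 was -0.34, and -0.33 under hypoxia. At an unadjusted p under 0.05 in room air, 6 of the 13 were lower and 0 higher, against 22.4% of all genes in either direction. The mean level of the list was 10.28 to 10.37 in WT and 9.83 to 10 in KO. Of 17 immediate early genes (17.6% called), 2 rose, Atf3 (1.15) and Klf2 (0.67), and 1 fell, Jun, by 0.40. The Jun call held on 3 of 12 leave-outs.

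Of 31 extracellular matrix genes 8 fell and 0 rose (25.8%, against 7.05% of all genes), with a median of -0.31. Eln, which encodes elastin, read 10.45, 10.72 and 10.31 in WT and 9.13, 9.34 and 9.33 in KO (difference -1.23, SE 0.13, adjusted p = 7.8e-04). Lox, the enzyme that cross-links elastin and collagen, differed by -1.36, Mmp3, a matrix protease, by -1.20, and Tnc, tenascin C, by -1.01. The basement membrane genes Col4a1, Col4a2, Nid1 and Sparc fell by 0.63, 0.54, 0.60 and 0.61, whereas the fibrillar collagens Col1a1 and Col3a1 did not pass (-0.36 and -0.31). Without KO room air 1, 4 of the 31 fell, and Eln, Lox, Mmp3 and Tnc kept their calls with each array left out. Mean levels of 2 lists of matrix-making cells were also lower. That of 7 smooth muscle genes was 9.96 to 10.02 in WT and 9.40 to 9.78 in KO, and that of 16 fibroblast and mesenchymal genes was 10.88 to 11.01 and 10.65 to 10.80. In each list 1 gene fell and 0 rose, Lmod1, a muscle actin nucleator, by 0.78 and Eln, which the matrix list also holds. The shares of calls were 14.3% and 6.25%, against 7.05% of all genes. At an unadjusted p under 0.05, 4 of the 7 and 3 of the 16 were lower, a level that 22.4% of all genes reached in either direction. The part of these cells in the matrix result was not tested.

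Npr3, the clearance receptor of natriuretic peptides, read 12.20, 12.04 and 11.94 in WT and 8.80, 9.63 and 10.14 in KO, a difference of -2.53 (SE 0.26, adjusted p = 7.2e-04). It was 1 of the 2 falls with KO room air 1 well below the other knockout arrays, so the array with the most liver signal was also the one lowest in Npr3. Lyve1, a hyaluronan receptor of lymphatic endothelium and some macrophages, differed by -1.17 and Nos3, endothelial nitric oxide synthase, by -0.65. The Nos3 call was lost without WT room air 2, KO room air 1 or KO room air 3. Of 20 general endothelial genes 1 rose and 0 fell (5%, against 7.05% of all genes), with a median of -0.14. At an unadjusted p under 0.05 there were 2 higher and 4 lower, a level that 22.4% of all genes reached. The rise, in Emcn, which encodes the endothelial surface protein endomucin, was lost on 3 of 12 leave-outs. Chaperones of the endoplasmic reticulum fell in 4 of 18 cases (22.2%, against 7.05% of all genes), with a median of -0.46. Hspa5, the chaperone BiP, was at 13.73 or more in WT and 13.08 or less in KO (difference -0.92, adjusted p = 0.0015). Creld2 differed by -1.18.

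In the pathway of IL-4 itself the share of calls, 10.5%, was near the 7.05% of all genes. Of 19 measured genes of IL-4 and IL-13 signalling, 2 fell, Il4 and Irs2, an adaptor of the receptor, by 0.52 (adjusted p = 0.026), and 0 rose. The Irs2 call was lost without WT room air 1 or 2 or KO room air 1 or 2. At an unadjusted p under 0.05 there were 7 of the 19, 5 lower and 2 higher, against 22.4% of all genes. The mean level of the list was 8.24 to 8.33 in WT and 8.04 to 8.13 in KO. Il4, the deleted gene, is 1 of these 19, 1 of the 2 calls and 1 of the 5 lower genes. The share of calls and the lower mean level therefore restate the deletion in part. Stat6, the main transcription factor of the pathway, read 9.34, 9.28 and 9.54 in WT and 9.00, 9.18 and 9.43 in KO and did not pass (adjusted p = 0.49). Il13, the related cytokine next to Il4 in the genome, differed by 0.01. Gata3, the factor that sets up T helper 2 cells, differed by 0.27 (adjusted p = 0.45).

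Of 22 genes of the type 2 response, 4 fell and 2 rose (27.3%, against 7.05% of all genes), with a median of -0.18. Ccl17, a chemokine that draws T helper 2 cells, read 8.96, 8.37 and 8.23 in WT and 6.86, 7.48 and 7.07 in KO (difference -1.38, SE 0.28, adjusted p = 0.012). Cd209a, a lectin of dendritic cells, differed by -1.21, Tgm2, a transglutaminase, by -0.71, and Mrc1, the macrophage mannose receptor, by -0.53. For Mrc1 the 3 WT values lay between 10.66 and 10.76 and the 3 KO values between 10.02 and 10.29. Ccl17 lost its call without WT room air 1 or KO room air 1, Cd209a without WT room air 2 or KO room air 2, and Mrc1 without KO room air 2.

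Retnla and Chil3, textbook markers of macrophages activated by IL-4, did not pass in room air. Retnla, the resistin-like molecule RELM-alpha, read 10.81, 10.88 and 10.33 in WT and 10.75, 10.95 and 10.31 in KO, a difference of 0.00 (SE 0.25, adjusted p = 0.99). Chil3, the chitinase-like protein Ym1, differed by -0.10 (SE 0.14, adjusted p = 0.73). The eotaxins Ccl11 (-0.62, adjusted p = 0.076) and Ccl24 (-0.35, 0.18) did not pass. Both rises of the list overlap other groups: Arg1, arginase 1 of macrophages and of the hepatic urea cycle, read 8.23, 7.95 and 7.26 in WT and 12.65, 10.99 and 10.56 in KO (difference 3.59, adjusted p = 0.0012), with the order of arrays of liver genes, and Fcer2a, the low-affinity IgE receptor of B cells, differed by 0.88 (adjusted p = 0.019), a call that was lost without WT room air 1, WT room air 2 or KO room air 2. Vcam1, an endothelial adhesion molecule, differed by -0.17 (adjusted p = 0.41).

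Markers of the remaining cell types gave few calls. Of 10 neutrophil genes 1 fell, Il1r2, described above (10%, against 7.05% of all genes). The mean levels of the list were 11.05, 10.06 and 8.31 in WT and 8.92, 8.61 and 8.30 in KO. Without WT room air 3, 8 of the 10 fell. S100a8 and Cxcr2 stood at -1.16 and -1.28 and did not pass. Of 11 heart and skeletal muscle genes 0 passed, although the mean level of 9.21 to 9.67 in WT lay above the 8.47 to 8.73 in KO. Markers of adipocytes, alveolar type 1 and type 2 cells, club and ciliated cells, mesothelium and red cells gave 0 calls in limma. At an unadjusted p under 0.05 there were 2 of 7 adipocyte, 1 of 7 alveolar type 1, 1 of 11 alveolar type 2, 1 of 16 club and ciliated, 0 of 7 mesothelial and 0 of 5 erythroid genes, and 1 of 11 muscle genes. The share of all genes at that level was 22.4%. Among targets of hypoxia-inducible factors, 4 of 26 fell (P4ha2, Hk2, Egln1 and Ndrg1) and 2 rose (Pdk1 and Aldoc), with a median of -0.13. Calls made up 23.1% of these targets, against 7.05% of all genes. Hk2 lost its call without WT room air 1 or KO room air 1, and Egln1 without WT room air 1 or KO room air 2.

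**Figure D5:**
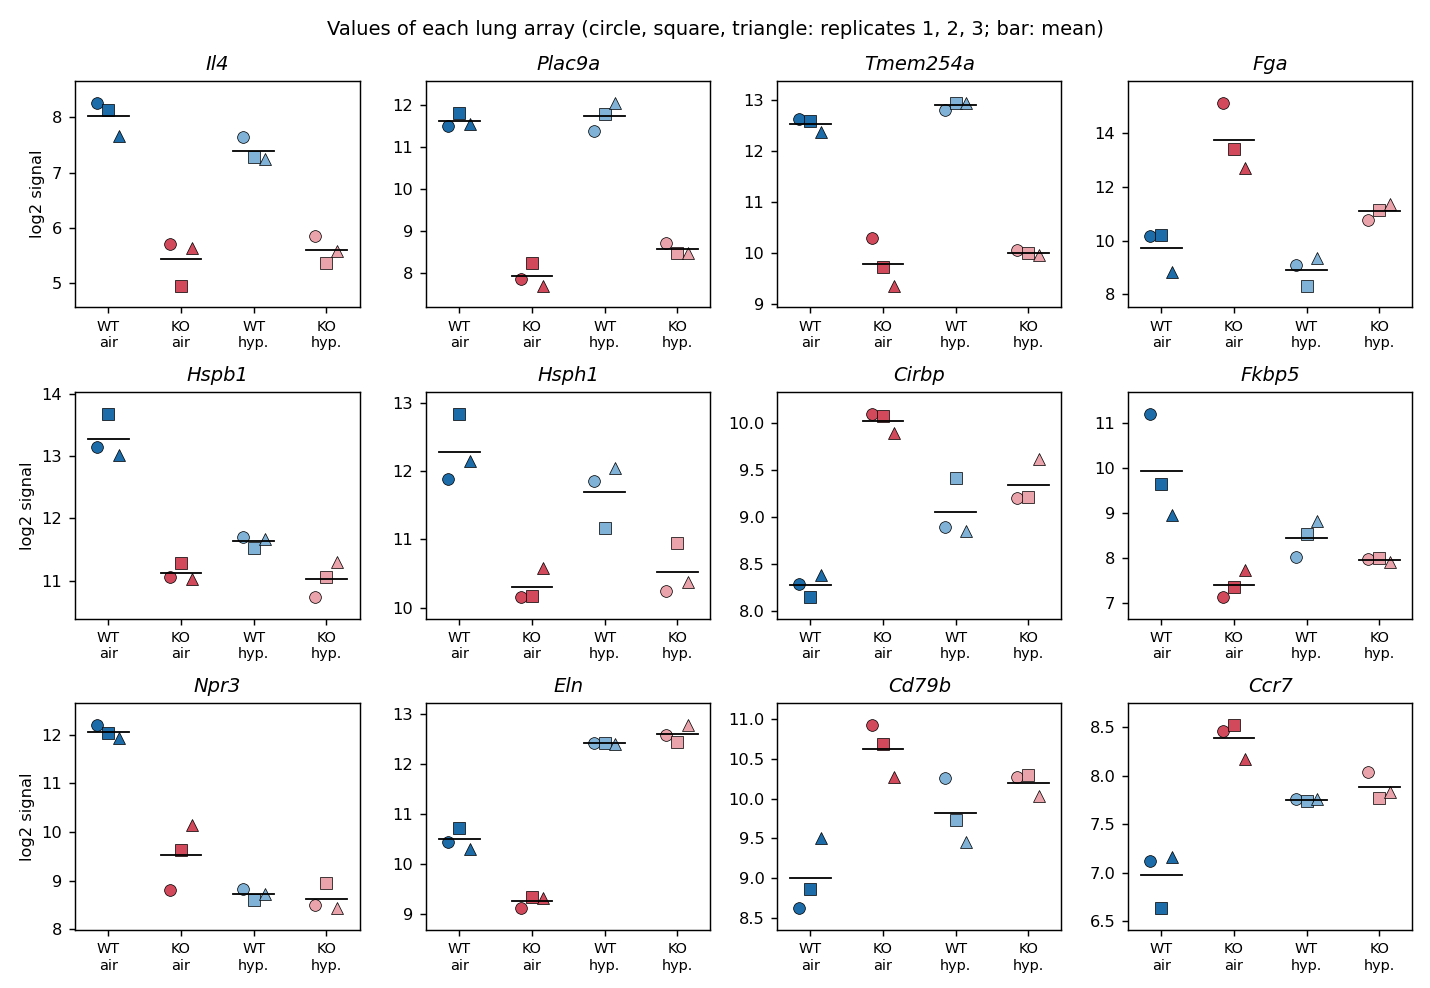
Log2 signals of 12 genes on each of the 12 lung arrays, with circles, squares and triangles for replicates 1, 2 and 3 and a bar for the mean of each group. Il4, Plac9a and Tmem254a are low on all 6 KO arrays; Fga follows the liver level; Hspb1, Cirbp, Npr3 and Ccr7 separate the genotypes in room air and less or not at all under hypoxia.

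The genotype difference itself differed between room air and hypoxia for 2 genes (0.0159%), Eln and Fsip1, and 1563 genes (12.4%) had an unadjusted p under 0.05 in that test. Both calls were lost without WT room air 1, KO room air 1 or KO room air 2, where 0 genes passed. The same held without KO hypoxia 3, or without WT hypoxia 1, 2 or 3. For the heat shock, B cell and glucocorticoid response genes named above, 0 passed the test in the main fit. Their differences are thus not shown to be particular to room air, although their medians under hypoxia were -0.42, 0.28 and -0.31. Npr3, for example, differed by -0.09 under hypoxia, where both genotypes were low.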

How the data were processed

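Per the labels' protocols, total lung RNA of each animal was extracted with Trizol, purified on columns and amplified with biotin; the submitters' processing notes name BeadStudio and no version. The authors deposited a non-normalized table with the signal intensity of each probe on each array beside its detection p-value, and a table of log2 values, which equals the log2 signal shifted to a common median for 25697 of 25697 probes within 0.02. Background, scaling and chip are not given in the sources used here.

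In R 4.3.3 with limma 3.58.1, background was estimated from the detection p-values, an offset of 16 was added, and the 12 lung arrays were quantile normalized and taken to log2, which compresses differences of dim probes. A probe was kept when its detection p was under 0.05 on 3 or more arrays (17112 probes), and the brightest probe stood for a gene (12571 genes, 1050 of them probes without a symbol). Of 25697 probes, 23978 had 1 symbol in the platform annotation, 0 several and 1719 none. One model with a mean per lung group (8 residual degrees of freedom) gave all contrasts with lmFit and eBayes. The p-values are two-sided and Benjamini-Hochberg adjusted over all genes. They rest on 1 spread per gene, between animals of a group, pooled over the 12 lung arrays and moderated across genes. A group that spreads more than the others may be given too small a standard error. For Hpx the SD was 1.59 in KO room air, 1.06 in WT room air and 0.52 in WT hypoxia. Where no array of the dimmer group detected a gene, its fold is a lower bound: each dim array was set to its own value or the faintest detected signal, whichever was larger, before averaging. The procedure was tested on simulated data.

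The comparison, the gene lists and the alternatives were chosen with earlier results of these data known. Named genes are up to 4 passing members of each liver class and other list with the largest difference, up to 12 rises and 12 falls outside the liver lists that also pass with the liver level held constant (2 falls did), the 6 largest rises and 6 largest falls that do not (3 of those rises are probes without a symbol), genes fixed for their link to IL-4, and passing genes among the 50 on each side of Il4. Further list members and other genes in the text were picked for their known role after their values were seen. Alternatives changed the arrays fitted, background, scaling, filter, probe choice and variance model.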

Additional observations from a re-analysis of the deposited data

Results flagged for a closer look

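Eln, which encodes elastin, differed between the genotypes by -1.23 in room air and by 0.18 under hypoxia. The difference between these effects was -1.41 (SE 0.18, limma adjusted p = 0.042). Its log2 signals were 12.42, 12.41 and 12.40 in WT and 12.58, 12.44 and 12.77 in KO under hypoxia, where all 6 arrays lay above the 6 room-air arrays. The call for a difference between the effects was lost without KO room air 1 and in other single leave-outs named above.

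Fsip1, named for a protein of the sperm fibrous sheath, differed by 1.12 in room air (5.31, 5.45 and 5.47 in WT; 6.52, 6.30 and 6.77 in KO) and by -0.38 under hypoxia (6.42, 6.43 and 6.30 in WT; 5.77, 6.17 and 6.07 in KO). The difference between these effects was 1.49 (SE 0.20, adjusted p = 0.042). All 3 KO arrays lay above WT in room air and all 3 lay below it under hypoxia. This call was lost in the same single leave-outs as that of Eln named above.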

How the results depend on the processing

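The 886 room-air calls became 446 with only the 6 room-air arrays, 2 with the liver level as a covariate, 1781 with array weights (whose estimation stopped short of its tolerance), 57 with KO room air 1 and 2 both left out, and 410 to 1238 on leaving out 1 lung array. Signs were kept by every call that could be tested under each alternative except the covariate, under which 784 of 886 kept theirs. The 7 hypoxia calls became 18 without background correction, 14 with median centring, 20 in the authors' log2 table, 21 with trend and robust variance, 45 with array weights, 51 without KO room air 1 and WT room air 3, 20 without KO room air 1 and 2, and 3 to 38 on leaving out 1 array. The 2 calls for a difference between room air and hypoxia became, in the same order of settings, 74, 27, 32, 141, 214, 67 and 0, with 0 under the covariate, 0 without the detection filter, and 0 to 201 on leaving out 1 array (201 without WT room air 3). The 2 calls at constant liver level became 9 without background correction, 22 in the authors' table, 11 with trend and robust variance, 96 with array weights, 0 without KO room air 1 and WT room air 3, 1 without KO room air 1 and 2, and 1 to 9 on leaving out 1 array. The 100 liver calls became 0 with the covariate, 28 without KO room air 1 and 2, and 83 to 102 on leaving out 1 array. The 786 calls outside the liver lists became 369 with 6 arrays, 2 with the covariate, 522 in the authors' table, 1675 with array weights, 29 without KO room air 1 and 2, and 325 to 1142 on leaving out 1 array. The 77 calls in the other lists became 0 with the covariate, 9 without KO room air 1 and 2, and 43 to 90 on leaving out 1 array. The cause of these shifts was not tested, beyond fewer arrays in the settings that leave some out.

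Differences that changed sign were not past the threshold in any such setting. Under the covariate these were Fgl1 (-0.56), 3 probes without a symbol (-0.85, -0.34 and -0.40), Chil3 (0.17), Selp (0.03), Icam1 (0.02) and Stat6 (0.19). With liver genes left out these were Retnla (0.02) and Ccl8 (0.01), with the mean of probes Vegfa (-0.03), and with array weights Il13 (-0.01), Retnla (0.07) and Ccl8 (0.07). Without KO room air 1 and WT room air 3 Icam1 was at 0.00, and without KO room air 1 and 2 Chil3 was at 0.05, Hmgb1 at -0.11, Bmpr2 at 0.02, Stat6 at 0.05 and Muc5ac at 0.02. On leaving out 1 array, values ran from -0.07 to 0.13 for Il13, -0.17 to 0.18 for Retnla, -0.13 to 0.10 for Ccl8, -0.15 to 0.37 for Hmgb1, -0.16 to 0.31 for Ccl22, -0.39 to 0.02 for Selp and -0.17 to 0.01 for Icam1. Of 98 named calls, 65 held with each array left out. The 2 settings that leave out a pair of arrays were chosen after seeing the data. No paired analysis was possible because replicate numbers were given in accession order and pair no animals. Probes near background limit the smallest differences that can be seen.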
